A study of Mus musculus with 4 samples.

Results

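The growth hormone, IGF and insulin receptor genes described here are 9 genes, Cish, Igf1, Igf2, Igf1r, Insr, Igfbp1, Igfbp2, Grb10 and Grb14, among the 16504 genes measured on 4 arrays of mouse liver RNA. All 9 were present, 8 with 1 probe and Igf1r with 3. They were selected on pathway membership, except Cish, which was picked for its low values in this data set. The ratios of Cish are therefore a description and carry no test. Polygenic obese mice had been fed CLA (conjugated linoleic acid, a dietary fat with shifted double bonds) or, as the control, LA (linoleic acid itself), and livers were taken at day 14. Each array carried a CLA pool and an LA pool, each made from 5 or 4 samples. The dye Cy5 marked the CLA pool on arrays 1 and 2, and Cy3 marked it on arrays 3 and 4. The labels name neither the mouse line nor the sex, age or dose. Nor do they say which arrays share pools, so that every p-value measures the spread between these 4 arrays, which may be technical.

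As background, pituitary growth hormone binds its receptor on hepatocytes and activates the kinase Jak2 and the transcription factors Stat5a and Stat5b. Igf1, which circulates as the main hormonal mediator of growth, is one of their target genes, and Cish encodes an SH2 protein that is induced by STAT5 and dampens the same receptor. Insulin acts through the related receptor Insr and in liver represses Igfbp1, whose product binds IGFs in plasma. Grb10 and Grb14 bind the active insulin and IGF receptors and inhibit them.

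The deposited values are log ratios, taken as base 10 and given here as log2. If the base was 2, every log2 value below is smaller by a factor of 3.32. The direction of the ratio is not given, and 2 parts of each gene were therefore described. The mean of the 4 deposited ratios is the CLA over LA difference if all values had been turned to run as CLA over LA. The half-difference, which is the mean of arrays 1 and 2 minus the mean of arrays 3 and 4, divided by 2, is that difference if the values run as Cy5 over Cy3. If the ratio runs the other way in either case, every sign turns. Under each reading the other part does not measure the diets but differences tied to dye orientation, such as those between the dyes. Which reading holds was not tested, so a call in 1 part cannot be taken as an effect of diet. Of 4159 features without a named gene, 470 lay more than 10-fold from 0 on every array. All 470 were negative on arrays 1 and 2 and positive on arrays 3 and 4. In values of Cy5 over Cy3, a spot that shines in 1 dye would keep its sign, and a spot that follows 1 pool would turn it. In values turned to CLA over LA the reverse holds, so the direction was not decided from these features. What these features are is not annotated here. Ratios hold no level, so the liver label could not be checked against marker levels. A lower ratio in bulk tissue can come from fewer cells of a type or from less RNA per cell, which cannot be told apart.

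The members' ratios are plotted by array, and Cish was the member farthest from 0 in the mean of the 4 ratios. Among the 8 members chosen by name, the mean was below 0 for 6 and above 0 for Igf2 and Igfbp2, with a median of -0.12 against 0.00059 over all genes. Their half-difference was below 0 for 5 of 8, with a median of -0.11 against 0.02 over all genes. For the mean of the 4 ratios, limma called 0 of the 8 tested members and 0% of the 16504 genes at an adjusted p under 0.05, with 2235 genes (13.5%) and 1 member, Igf2, at an unadjusted p under 0.05. For the half-difference it called 0 of 8 members and 2820 genes (17.1%), of which 1216 (7.37%) lay above 0 and 1604 (9.72%) below. At an unadjusted p under 0.05 it gave 6348 genes (38.5%) and 2 members, Igf1 and Igf2. A single sign on all 4 arrays was found for 1 of these 8, Igf1r, and for 9.64% of all genes. A sign that turned with the dye orientation, in either direction, was found for 2 of the 8, Igf1 and Grb14, and for 42.9% of all genes.

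**Figure D1:**
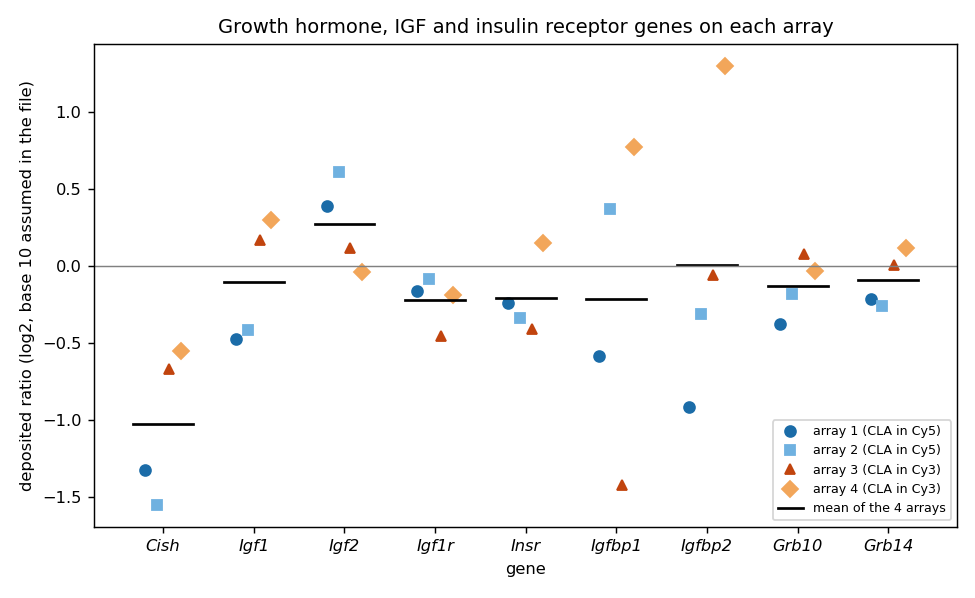
Deposited ratio (log2, y axis) of each of the 9 genes (x axis) on the 4 arrays, 1 symbol per array, with the mean of the 4 arrays as a black line. Cish lay below 0 on all 4 arrays, Igf1 and Grb14 changed side with the dye orientation, and Igfbp1 and Igfbp2 had the widest scatter.

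Cish, the STAT5-induced inhibitor of cytokine receptor signalling, had deposited log2 ratios of -1.33, -1.55, -0.67 and -0.55 on arrays 1 to 4. All 4 lay below 0, and arrays 1 and 2 lay further from it than arrays 3 and 4. Its mean was -1.03 ± 0.49 (SD, n = 4), a 2.04-fold difference, and its half-difference was -0.42. Among all genes the value of Cish stood at percentile 0.833 on array 1, 0.985 on array 2, 6.95 on array 3 and 12.99 on array 4. If the values already run as CLA over LA, Cish stood lower in the CLA pools on every array. If they run as Cy5 over Cy3, it stood lower on arrays 1 and 2 and higher on arrays 3 and 4. These low values are why Cish was chosen. The gene nearest to Cish over the 4 arrays was Olfr1095, an olfactory receptor gene, at a Euclidean distance of 0.33 log2, with -1.16, -1.51, -0.77 and -0.82. Pgpep1l and Spag1 followed at 0.64 and 0.81.

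The start region of Cish is shown because it is the member named as a STAT5 target. It is the RefSeq window of assembly GRCm38.p6, from 250 bases before to 50 bases after the annotated start, on the plus strand at chr9:107296409-107296708. Capitals mark the motif TTCNNNGAA, the spaced palindrome bound by STAT5, which was searched on both strands.

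Cish: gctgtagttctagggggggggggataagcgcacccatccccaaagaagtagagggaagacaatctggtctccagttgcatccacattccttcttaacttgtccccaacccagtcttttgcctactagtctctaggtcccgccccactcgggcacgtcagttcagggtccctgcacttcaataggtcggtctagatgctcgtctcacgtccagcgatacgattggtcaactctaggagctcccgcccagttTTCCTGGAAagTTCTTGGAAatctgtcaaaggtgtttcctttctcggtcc

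Cish held 2 matches, TTCCTGGAA from base 1 and TTCTTGGAA from base 12 after the annotated start. They do not overlap each other. At least 1 match was found in 8.30% of 32851 RefSeq windows of this length, and at least 2 in 0.457%. Windows were on hand for 8 of the 9 members (13 windows), and none of the other members' windows held this motif. A match is a description of letters and says nothing of binding in these livers.

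Igf1, the liver-derived growth factor, had the smallest p in the half-difference among the 8 tested members. Its log2 ratios were -0.48, -0.42, 0.17 and 0.30 on arrays 1 to 4. Both arrays with CLA in Cy5 lay below 0 and both with CLA in Cy3 above it, without overlap, as was so in this direction for 21.6% of all genes. The half-difference was -0.34 ± 0.08 (SE, n = 4), with an adjusted p of 0.051 in limma, just outside the threshold, and a 95% interval from -0.55 to -0.13. The mean of the 4 ratios was -0.11 ± 0.08 (SE, adjusted p = 0.55 in limma), with an interval from -0.31 to 0.10. The Igf1 probe is feature 22377 of 22393, where a smooth trend of the ratios over feature number reached 0.33 on array 4 and 0.15 on array 3. With that trend removed the half-difference was -0.24 (adjusted p = 0.093 in limma) and the mean of the 4 ratios also -0.24 (adjusted p = 0.37 in limma).

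Igf2, the second ligand, which is mainly made before birth in mouse liver, had log2 ratios of 0.39, 0.61, 0.12 and -0.04. It was highest on arrays 1 and 2 and near 0 on arrays 3 and 4. Its mean of 0.27 ± 0.09 (SE, n = 4) did not pass over all genes (adjusted p = 0.36 in limma), nor did its half-difference of 0.23 ± 0.09 (adjusted p = 0.13 in limma).

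**Figure D2:**
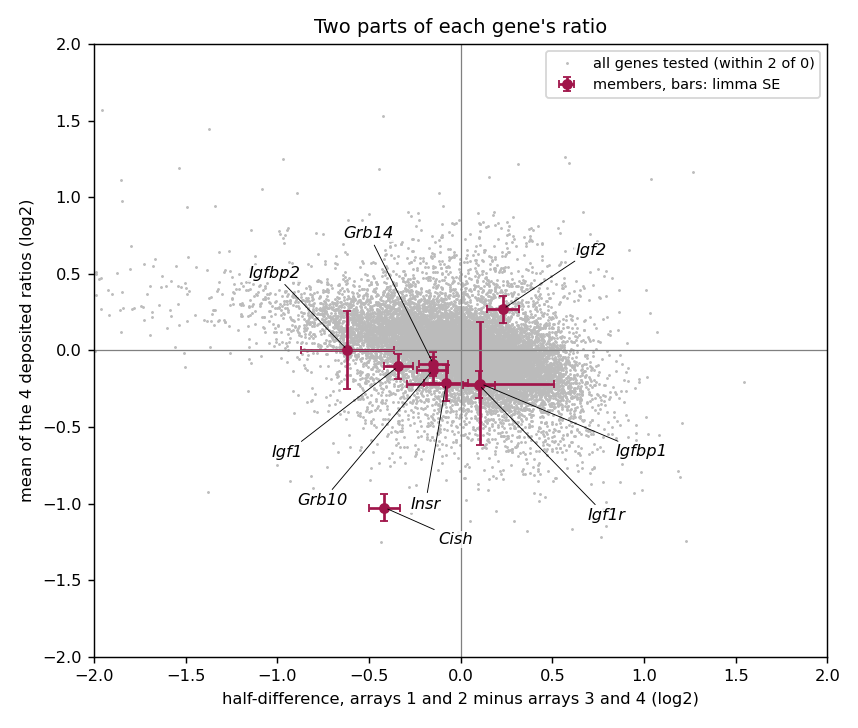
Mean of the 4 deposited ratios (log2, y axis) against the half-difference between dye orientations (log2, x axis) for all genes within 2 of 0 on both axes (grey; 63 genes lie outside) and the 9 members (red, bars are limma standard errors). Cish lies at -1.03 on the y axis, and the other members lie within 0.27 of 0 there.

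The receptors differed little from 0 as gene averages. Igf1r, the receptor of both ligands, had averaged log2 ratios of -0.16, -0.09, -0.46 and -0.19, all below 0. Its mean of -0.23 ± 0.09 (SE, n = 4) had an adjusted p of 0.37 and its half-difference of 0.10 ± 0.09 an adjusted p of 0.45 in limma. This average joins probes that disagree. The probe designed on a RefSeq mRNA gave 0.07, 0.26, -0.20 and -0.35. A probe on a cDNA clone gave -0.32, -0.81, -1.50 and -0.66, below 0 on every array. Another cDNA clone probe gave -0.24, 0.28, 0.34 and 0.44, above 0 on 3 arrays. The 3 probe means were -0.06, -0.82 and 0.20, and which transcripts the clone probes report was not tested.

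**Figure D3:**
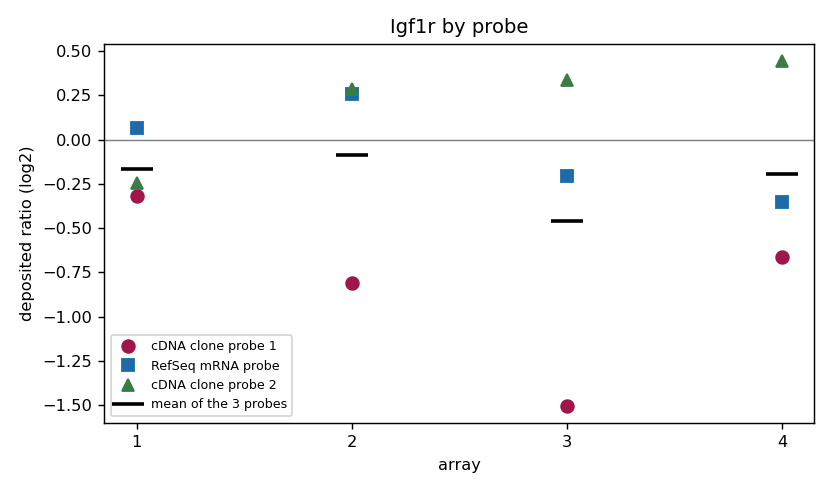
Deposited ratio (log2, y axis) of the 3 Igf1r probes on arrays 1 to 4 (x axis), 1 symbol per probe, with the mean of the 3 as a black bar. One cDNA clone probe lies below 0 on all arrays, down to -1.50 on array 3, and the other probes lie on either side of 0.

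Insr, the insulin receptor gene, had log2 ratios of -0.24, -0.34, -0.41 and 0.15. Arrays 1 to 3 lay below 0 and array 4 above it. The mean was -0.21 ± 0.12 (SE, n = 4, adjusted p = 0.46 in limma) with an interval from -0.53 to 0.10, and the half-difference was -0.08 ± 0.12 (adjusted p = 0.66 in limma).

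The binding proteins varied most between arrays. Igfbp1, the insulin-repressed carrier, had log2 ratios of -0.59, 0.37, -1.42 and 0.77, a range of 2.20. It lay below 0 on arrays 1 and 3 and above 0 on arrays 2 and 4, so that arrays of the same dye orientation disagreed in sign. On array 3 the ratio was 2.68-fold below even, and it stood at percentile 0.688 of all genes, and on array 4 at percentile 91.7. Its mean was -0.22 ± 0.40 and its half-difference 0.11 ± 0.40 (SE, n = 4, adjusted p = 0.82 and 0.86 in limma). The intervals, from -1.27 to 0.83 and from -0.94 to 1.16, are wide. Leaving out array 1 or 3 turned the sign of the mean (0.02 and 0.33), and leaving out array 2 or 3 that of the half-difference (-0.13 and -0.44). The nearest gene over the 4 arrays was Bpifb2 at a distance of 0.37.

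Igfbp1 is also shown by its start region, since its response to insulin is known to act through a sequence there. The window lies on the plus strand of chromosome 11, at chr11:7197537-7197836 of GRCm38.p6, and capitals mark the motif CAAAACAA, a core of insulin response elements that FoxO factors bind, searched on both strands.

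Igfbp1: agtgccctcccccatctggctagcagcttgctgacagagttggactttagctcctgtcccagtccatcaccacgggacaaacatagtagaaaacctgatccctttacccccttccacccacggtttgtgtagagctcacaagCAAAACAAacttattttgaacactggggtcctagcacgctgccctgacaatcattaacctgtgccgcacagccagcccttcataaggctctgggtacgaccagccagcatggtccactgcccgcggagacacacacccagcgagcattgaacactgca

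The match begins at base -108, counted from the annotated start, and was the only one of this motif among the members' 13 windows. It overlaps no match of the STAT5 motif, and 2.51% of all windows hold it. Nothing follows from it about insulin in these mice.

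Igfbp2, a further liver-made IGF carrier, had log2 ratios of -0.92, -0.31, -0.06 and 1.30, a range of 2.22. Arrays 1 to 3 lay below 0 and array 4 alone above it, at 2.46-fold. Percentiles among all genes were 1.71 on array 1 and 97.9 on array 4. The mean was 0.0029 ± 0.25 (SE, n = 4, adjusted p = 0.997 in limma), and the half-difference was -0.62 ± 0.25 (adjusted p = 0.15 in limma) with an interval from -1.29 to 0.05. For 5 lists of marker genes of other cell types, and for the adipocyte list, the highest median also lay on array 4. On it the medians were 0.69 for Kupffer cells and macrophages (5 genes), 0.46 for endothelial cells (8 genes), 0.43 for bile duct cells (5 genes), 0.40 for stellate cells (8 genes) and 0.99 for pancreas (6 genes), against -0.14 for hepatocytes (7 genes). The same 5 lists had medians between -0.02 and 0.15 on array 1, between -0.33 and 0.08 on array 2 and between -0.30 and 0.12 on array 3, where the hepatocyte medians were 0.40, -0.04 and 0.23. The adipocyte list (7 genes) had medians of -0.25, -0.07, 0.21 and 0.28 on arrays 1 to 4. On array 4 the medians of the lymphocyte (7 genes) and erythroid lists (4 genes) were -0.06 and -0.27. Except for bile duct, each list had genes on both sides of 0 there. Ranges were -0.34 (Adgre1) to 0.99 (Marco) for macrophages and -0.60 (Cdh5) to 0.72 (Tek) for endothelial cells. They were -0.30 (Reln) to 1.71 (Acta2) for stellate cells and -0.73 (Gcg) to 2.21 (Cpa1) for pancreas. Hepatocyte genes ran from -1.14 (Tat) to 1.31 (Apoa1), and their median is the value of Apoa2, close to that of Alb. The part of these cell types in the Igfbp2 value was not tested. Without array 4 the mean of Igfbp2 was -0.34 and the half-difference -0.28, and without array 3 they were 0.34 and -0.96.

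The adaptors stayed close to 0. Grb10, which binds the insulin and IGF receptors, had log2 ratios of -0.38, -0.18, 0.08 and -0.03, with the lower values on arrays 1 and 2. Its mean was -0.13 ± 0.08 (SE, n = 4, adjusted p = 0.51 in limma) and its half-difference -0.15 ± 0.08 (adjusted p = 0.25 in limma). Grb14, the paralog that is prominent in liver, had -0.22, -0.26, 0.0028 and 0.11. Arrays 1 and 2 lay below 0, array 3 at 0 and array 4 above. Its mean was -0.09 ± 0.08 (adjusted p = 0.60 in limma) and its half-difference -0.15 ± 0.08 (adjusted p = 0.23 in limma). The intervals of these 4 values lay within -0.37 and 0.11.

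Of the other genes between the growth hormone receptor and STAT5, 13 of 14 listed were measured, and 2 of the 13 passed in the half-difference, with opposite signs, where 17.1% of all genes passed. Ghr, the receptor, had log2 ratios of 0.40, 0.04, -0.83 and -0.61 and a half-difference of 0.47 ± 0.10 (SE, n = 4, adjusted p = 0.046 in limma). Jak2, the kinase bound to it, had -0.25, -0.76, 1.12 and 0.94 and a half-difference of -0.77 ± 0.12 (adjusted p = 0.029 in limma). Both calls were lost without array 2, without array 3 and without array 4, with adjusted p between 0.055 and 0.18 in limma. That of Ghr was also lost without array 1, with arrays scaled to one spread, with 1 coefficient and with every feature as a row. The other 11 did not pass, and none of the 13 passed in the mean of the 4 ratios, where the list median was 0.0038 and 0 of 13 reached an unadjusted p under 0.05. Stat5b had -0.11, 0.32, 0.37 and 0.25, with a mean of 0.21 ± 0.10 (adjusted p = 0.43 in limma). Socs2, a growth hormone induced relative of Cish, had -0.62, -0.45, -0.07 and 0.32, with a mean of -0.20 ± 0.10 (adjusted p = 0.43 in limma). Like Cish it was lower on arrays 1 and 2 than on arrays 3 and 4, but array 4 lay above 0.

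Liver genes known to respond to growth hormone gave values on both sides of 0. Of 23 listed, 16 were measured, and none passed in either part. In the mean of the 4 ratios 9 lay above and 7 below 0, with a median of 0.08, and 7 of 16 reached an unadjusted p under 0.05 against 13.5% of all genes. A single sign on all 4 arrays was found for 4 of 16, against 9.64%. The list was drawn up with earlier results of these data known, so these shares are a description and carry no test. The 2 with the smallest p were Egfr, the epidermal growth factor receptor gene, and Hsd3b5, a male-predominant steroid dehydrogenase of mouse liver. Egfr had -0.37, -0.36, -0.68 and -0.66, with a mean of -0.52 ± 0.08 (SE, n = 4), and Hsd3b5 had -0.38, -0.66, -1.14 and -0.71, with a mean of -0.72 ± 0.11 (adjusted p = 0.35 for both in limma). All 8 of these values lay below 0.

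The other 5 of those 7 were named after their values were seen. Cyp7b1, the male-predominant oxysterol hydroxylase, had -1.23, -0.85, -0.71 and -0.15, and Slco1a1, a male-predominant organic anion transporter, had 0.18, -0.34, -0.66 and -0.55. Cyp2b9, a female-predominant cytochrome P450 of mouse liver, had 1.26, 2.41, 1.38 and -0.0001, and its relative Cyp2b13 had 0.88, 1.16, 1.02 and 0.13. The female-predominant pair lay above 0 on arrays 1 to 3 and close to 0 on array 4, and Cyp7b1 lay below 0 on all. Other female-predominant genes of the list did not share this pattern, with Cyp3a41a at 0.62, 0.54, -0.67 and -0.07 and Cux2 at -0.08, 1.81, -0.38 and 0.50 (adjusted p of the means 0.71 and 0.55 in limma). The means of Cyp7b1, Slco1a1, Cyp2b9 and Cyp2b13 were -0.73, -0.34, 1.26 and 0.80 (adjusted p between 0.35 and 0.36 in limma). The Cyp2b13 value averages 2 probes that differed, with means of 0.35 and 1.25. The mean of Slco1a1 was -0.22 without array 2. Mup5, a major urinary protein, had 0.53, 0.63, 0.54 and -0.14, within 0.02 of Apoa2 on every array. Cyp4a12a and Cyp2d9, other male-predominant genes also named after their values were seen, had means near 0. These were 0.15 ± 0.12 and 0.05 ± 0.08 (adjusted p = 0.58 and 0.79 in limma). On the single arrays Cyp4a12a was not near 0 throughout, with -0.48, 0.06, 0.39 and 0.63. Elovl3 of the same list, named on the same basis, had -1.01, -1.35, -0.23 and 1.00. Its mean was -0.40 ± 0.22 (adjusted p = 0.45 in limma).

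The list of other IGF-binding and IGF-trapping genes had 12 of 13 measured. It also holds the proteases Pappa and Htra1 and the mRNA-binding Igf2bp1 and Igf2bp3, which are not IGF carriers and did not pass. In the half-difference 3 of the 12 passed, against 17.1% of all genes, and none in the mean. Igfbp4, an inhibitory IGF carrier, had -1.06, -0.73, 1.55 and 1.47, and a half-difference of -1.20 ± 0.09 (SE, n = 4, adjusted p = 0.011 in limma). Igfbp5 had 0.70, 1.53, -0.71 and -0.50, and a half-difference of 0.86 ± 0.16 (adjusted p = 0.036 in limma). Igfbpl1, an IGF-binding protein-like gene, had 0.19, 0.29, -0.51 and -0.71, and a half-difference of 0.43 ± 0.08 (adjusted p = 0.040 in limma). In each of them the sign turned with the dye orientation, as it did for 42.9% of all genes. These 3 were named because they were called in the half-difference, so this is a description. Each call was lost without array 3 and without array 4, where limma called no gene at all, Igfbp5 also without array 2 and Igfbpl1 also without array 1 or 2 and with 1 coefficient. Igfals, the liver-made subunit that holds Igf1 and Igfbp3 in plasma, had -0.38, -0.65, 0.03 and 0.02, with a mean of -0.25 ± 0.09 (adjusted p = 0.36 in limma). Igfbp3 had -0.18, 0.31, 0.34 and 0.31, with a mean of 0.20 ± 0.11 (adjusted p = 0.45 in limma).

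**Figure D4:**
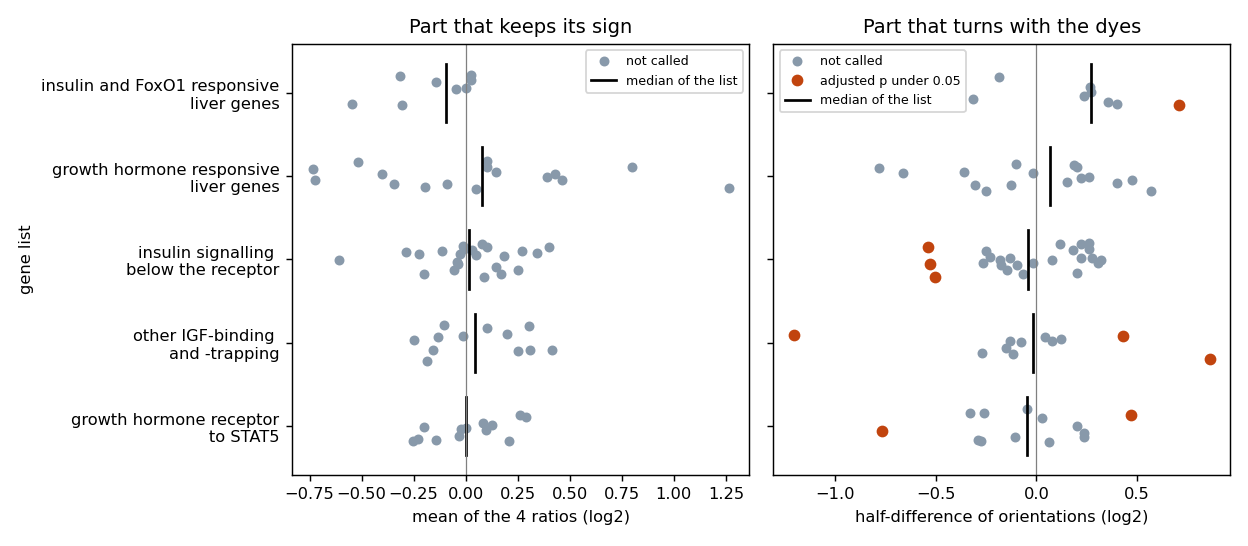
Mean of the 4 ratios (left, log2) and half-difference of orientations (right, log2) of every measured gene of 5 lists (y axis), with orange for an adjusted p under 0.05 in limma and black bars for list medians. No gene is called on the left, and Igfbp4 at -1.20 is the farthest called gene on the right.

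Insulin signalling genes, listed as below the receptor, were measured for 24 of 30. The list also holds the hormone gene Ins2 and the receptor relative Insrr, which do not lie below it. In the half-difference 3 of the 24 passed, all below 0, where 17.1% of all genes passed and 9.72% did so below 0. They were Grb7, an adaptor related to Grb10 (-0.51 ± 0.12, adjusted p = 0.0499), Pik3ca, a catalytic subunit of the lipid kinase (-0.53 ± 0.11, adjusted p = 0.043), and Ins2, an insulin gene known from pancreatic islets (-0.54 ± 0.11, adjusted p = 0.041; SE, n = 4, limma). Each of these calls was lost when any 1 array was left out and with 1 coefficient, that of Grb7 also with arrays scaled to one spread, robust moderation, every feature as a row or a probe-level fit, that of Pik3ca also with every feature as a row and that of Ins2 with arrays scaled to one spread. None passed in the mean of the 4 ratios. The list medians were 0.01 for the mean and -0.04 for the half-difference. Irs1, the substrate of both receptors, had 0.08, -0.07, 0.52 and 0.22, with a mean of 0.19 ± 0.09 (adjusted p = 0.43 in limma). Of 11 genes known to respond to insulin and FoxO1, 8 were measured and 1 of the 8 passed in the half-difference, against 17.1% of all genes. G6pc, the glucose-6-phosphatase gene that insulin represses like Igfbp1, had 0.10, 0.23, -1.11 and -1.40 and a half-difference of 0.71 ± 0.09 (adjusted p = 0.025 in limma), a call lost when any 1 array was left out and with 1 coefficient. Igfbp1 and G6pc lay on the same side of 0 on arrays 2 and 3 and on opposite sides on arrays 1 and 4. Pck1, another insulin-repressed gene, named after its values were seen, had 0.25, 0.35, -0.58 and 0.09 and did not pass (adjusted p = 0.20 in limma).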

How the data were processed

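Pooled liver RNA was hybridised to 4 arrays, each with 2 dyes. The authors deposited 1 processed log ratio per feature and array, here taken as log10 because the feature numbering is that of an Agilent array. Of base, direction, background correction and normalization, none is given in the sources used here. Array medians lay between -0.0023 and 0.0010 in deposited units. Scanner intensities were not analysed here, so dim or saturated spots could not be removed and the number of arrays limits the precision.

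Values were multiplied by 3.32 to log2. Of 22393 features, 18218 had 1 gene symbol, 16 several and 4159 none; 18175 were matched to RefSeq gene numbers (GRCm38.p6), changing 0 symbols. Accessions with at least 8 features were averaged, then probes of a gene, giving 16504 genes. Limma 3.58.1 in R 4.3.3 (lmFit, eBayes) fitted 1 coefficient for the mean and 1 for the dye orientation, with 2 residual and 2.66 prior degrees of freedom and Benjamini-Hochberg adjustment over all genes. The fit was tested on simulated data. Members and lists were chosen with earlier results of these data known. Named genes are the members, their 3 nearest genes, up to 4 called genes per list (otherwise the 2 with the smallest p) and Ghr, Stat5b, Socs2, Irs1, Igfbp3 and Igfals; other names are stated as such or given for comparison. Irs2, also in that rule, was not analysed here. Alternatives were median centring, a common spread, removal of a lowess trend over feature number (span 0.3), 1 coefficient, robust moderation, features or probes as rows, an adjusted p under 0.10, and each array left out. Figures used matplotlib 3.10.9 in Python 3.11.15.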

Additional observations from a re-analysis of the deposited data

Results flagged for a closer look

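Among the members, Igf1 and Grb14 had opposite signs in the 2 dye orientations, with half-differences of -0.34 and -0.15. Neither passed the threshold (limma adjusted p of 0.051 and 0.23). Grb14 was at 0.0028 on array 3, so its turn of sign rests on a value at 0. For Igf1 the ratios of 0.17 and 0.30 on arrays 3 and 4 compare with a feature-number trend of 0.15 and 0.33 there. Igfals, from the list of IGF-binding genes, also had opposite signs, at -0.27 (adjusted p = 0.094 in limma). The difference between orientations passed limma for Ghr (0.47), Igfbp5 (0.86), Igfbpl1 (0.43) and G6pc (0.71) on the higher side and for Jak2 (-0.77), Igfbp4 (-1.20), Grb7 (-0.51), Pik3ca (-0.53) and Ins2 (-0.54) on the lower side. It also passed for 17.1% of all genes.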

How the results depend on the processing

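With 4 arrays and 2 fitted terms, precision is low, and signal over background is unknown. In the mean of the 4 ratios, limma called 0 genes in every alternative, with 523 to 3178 genes at an unadjusted p under 0.05. In the half-difference the count of 2820 became 5380 at an adjusted p under 0.10, 1202 with 1 coefficient, and between 0 and 735 without 1 array (0 without array 3 or array 4, with 4712 and 4015 at an unadjusted p under 0.05; these fits keep 1 residual degree of freedom). At an adjusted p under 0.10 Igf1 was the only tested member to pass, in the half-difference (adjusted p = 0.051 in limma), and at 0.05 no tested member passed in any alternative. The mean of Cish ran from -1.14 to -0.97 and its half-difference from -0.62 to -0.36 across alternatives. Changes of sign were found for 4 members. For Igf1r, the second cDNA clone probe gave a mean of 0.20 and a half-difference of -0.18. The half-difference of Igfbp1 ran from -0.44 without array 3 to 0.66 without array 4, and was -0.13 without array 2. Its mean ran from -0.77 to 0.33, and was 0.02 without array 1 and 0.33 without array 3. The mean of Igfbp2 ran from -0.34 without array 4 to 0.34, and was -0.15 without array 2 and -0.15 with arrays scaled to one spread. The half-difference of Insr was 0.061 without array 4 and -0.22 without array 3. Without sign change, leaving out 1 array moved the mean of Insr to between -0.35 and -0.07, Socs2 to between -0.30 and -0.11, Stat5b to between 0.10 and 0.31, Igfbp3 to between 0.08 and 0.32, Irs1 to between 0.11 and 0.26 and Mup5 to between 0.22 and 0.56. The cause of these changes was not tested. No pairing of arrays is given by the labels.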

Other observations

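The genes nearest to the other members over the 4 arrays, by Euclidean distance of log2 ratios, were genes outside the lists used here. Igf1 lay closest to Rps10, a ribosomal protein gene, at 0.07, with -0.47, -0.37, 0.23 and 0.32. Igf2 lay closest to Reg3g at 0.13, Insr to Irx1 at 0.13, Igf1r to Gvin1 at 0.03, Grb10 to Top3b at 0.09 and Grb14 to Pbrm1 at 0.03. Igfbp2 lay closest to Pofut2, a fucosyltransferase gene, at 0.29, with -0.70, -0.33, 0.13 and 1.32, a pattern that also peaked on array 4. Smaller distances are found for genes near 0, where most genes lie.

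Apoa2, an abundant plasma lipoprotein gene, had log2 ratios of 0.53, 0.63, 0.54 and -0.14, and was the only gene within 0.02 of Mup5 on every array. Alb, the serum albumin gene, shared these values on arrays 1, 2 and 4, at 0.53, 0.63 and -0.14, but had 0.91 on array 3. None of the 9 members lay within 0.02 of Mup5 on all arrays.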
